A study of Mus musculus with 8 samples.

Results

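The 9 genes described here, *Cyp2f2*, *Hal*, *Sds*, *Sdsl*, *Gls2*, *Hsd17b13*, *Aldh1b1*, *Pigr* and *Etnppl*, are known for expression in the hepatocytes around the portal vein. They were taken by symbol from a given list of periportal genes. Of the 16540 genes in the liver count table these were 9, and all 9 were among the 12307 genes with enough counts to be tested. Livers of male *Apoe*-/- mice on a Western diet were sequenced after treatment with vehicle (4 libraries) or with ISOGK at 20 mg/kg per day for 8 weeks (4 libraries). ISOGK is isoginkgetin, a biflavonoid of *Ginkgo biloba*, and was given by intraperitoneal injection, with DMSO as the vehicle. Both groups lacked *Apoe* in the whole body, a model of high plasma cholesterol and atherosclerosis, so no liver with intact *Apoe* or on another diet was compared. The age of the mice was not given in the labels. Between 17457106 and 24461854 reads per library were counted on genes, and the lowest count of any periportal member in any library was 159. The labels number the mice 1 to 4 within a group and say nothing of litters or cages. No pair of libraries within a group agreed within sampling noise, with a chi-square per gene of 18.1 to 33.5 between vehicle-treated mice and 33.2 to 99.6 between ISOGK-treated mice.

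The liver lobule runs from the portal triad, where oxygen-rich blood enters, to the central vein, where it leaves. Hepatocytes along this axis divide their work. Those near the portal vein are known for amino acid breakdown, urea synthesis and glucose production, and those near the central vein for glutamine synthesis and much of drug metabolism, under Wnt signals from central vein endothelium. A bulk liver library adds up all of these cells. It does not show where in the lobule an RNA lies, and fewer cells of a type and less RNA per cell cannot be told apart. The defining hepatocyte markers were abundant in all 8 libraries, with a summed level of 154798 to 168569 CPM (counts scaled to the TMM-normalized size of each library) in vehicle-treated mice and 142473 to 193945 in ISOGK-treated mice.

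ISOGK-treated livers did not show a shared direction among the periportal members. *Sdsl*, a serine dehydratase-like enzyme, and *Hal*, which opens histidine breakdown, rose. No member passed the test for a fall. This was 2 of 9 members called at an adjusted p under 0.05 by edgeR's quasi-likelihood test, where 7.55% of all genes tested were called in either direction, 4.11% higher and 3.44% lower. *Sdsl* was also past an absolute log2 fold change of 1, as were 1.63% of all genes tested together with a call. The median log2 fold change over the 9 members was 0.07, with 5 above 0 and 4 below, and the median over all genes was 0.00. The median size of the log2 fold change, without its sign, was 0.33 over the members and 0.19 over all genes. The groups did not overlap for 4 members, of which *Hal*, *Sdsl* and *Hsd17b13* were higher in every ISOGK-treated mouse and *Pigr* was lower in every one. Over all genes the groups did not overlap for 15.3%, made up of 7.92% higher after ISOGK and 7.36% lower. The 9 members summed to 3767 ± 230 CPM (SD, n = 4) with vehicle and 3585 ± 243 CPM with ISOGK, which was 0.377% and 0.359% of normalized counts, and these sums overlapped.

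**Figure D1:**
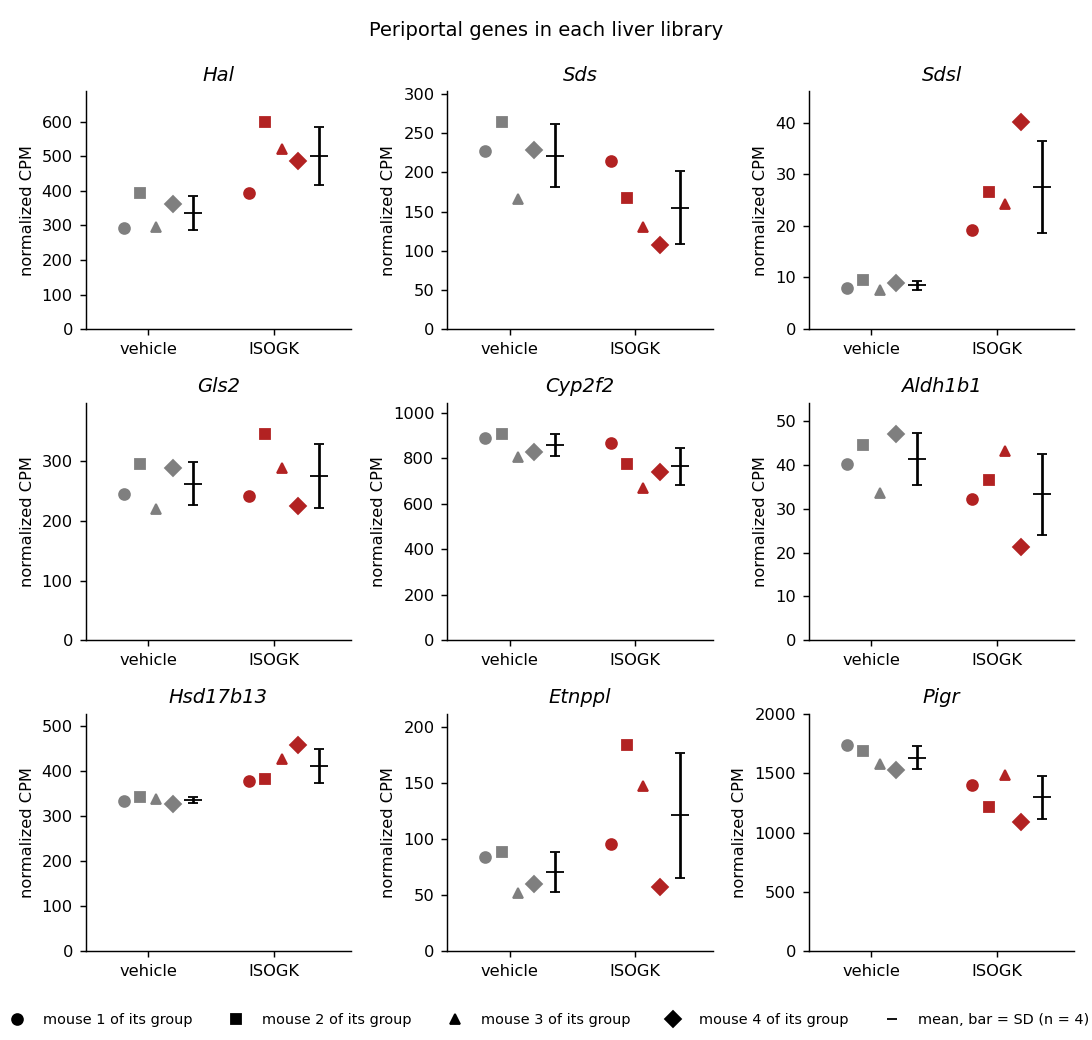
Normalized CPM of each of the 9 periportal genes in each liver library, with vehicle in grey and ISOGK in red, and a symbol for each mouse number within its group. Horizontal marks are means and bars are SD (n = 4). All axes start at 0. *Sdsl* lies between 7.63 and 9.49 CPM with vehicle and between 19.2 and 40.1 CPM with ISOGK, while *Gls2*, *Cyp2f2*, *Aldh1b1*, *Sds* and *Etnppl* overlap.

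RefSeq promoter windows were found for 6 of the 9 members, but not for *Sds*, *Sdsl* and *Gls2*. *Sdsl*, whose groups also did not overlap, was thus not searched for motifs. The 120 bases before the start site are printed for the 3 of these whose groups did not overlap, *Hal* (GRCm38.p6 chr10:93488648-93488767, plus strand), *Hsd17b13* (chr5:103977389-103977508, minus strand) and *Pigr* (chr1:130826564-130826683, plus strand), each 5′ to 3′ on the strand of its gene.
Hal: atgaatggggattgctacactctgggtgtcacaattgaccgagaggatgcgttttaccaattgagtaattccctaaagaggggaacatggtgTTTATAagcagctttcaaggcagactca
Hsd17b13: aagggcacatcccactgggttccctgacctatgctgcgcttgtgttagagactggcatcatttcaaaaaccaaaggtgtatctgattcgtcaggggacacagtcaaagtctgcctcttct
Pigr: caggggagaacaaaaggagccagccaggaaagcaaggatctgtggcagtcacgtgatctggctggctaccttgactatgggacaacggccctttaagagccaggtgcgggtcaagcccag
The capitals mark TATAAA, the letters of a TATA box, read on the other strand, beginning 28 bases before the *Hal* start site. The motifs were searched on both strands in windows from 250 bases before to 50 bases after the start. TATAAA was present in 13.6% of all 32851 such windows and in 1 of the 7 windows of the members. TTGCNCA, a C/EBP motif, was present in 13.6% of all windows. It was in that of *Hal* and in 1 of the *Etnppl* windows, beginning 150 and 214 bases before the start. CTTTGAT, a TCF/LEF motif, was present in 3.73% of windows and in that of *Hal*, 199 bases before the start. GTTAAT, an HNF1 half-site, was present in 7.1% of windows. It was in the other *Etnppl* window, which has a different start site, 6 bases before that start. AAAGTCC, an HNF4A core, and TGACGT, a CRE core, were present in 4.21% and 7.51% of all windows and in none of the 7. These are matches of letters and were not measured as binding.

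*Hal* encodes histidine ammonia-lyase, which removes ammonia from histidine to give urocanate. It lies on chromosome 10 of GRCm38 (93488768 to 93519304, plus strand, 21 exon blocks). *Hal* stood at 293, 393, 295 and 361 CPM in vehicle-treated mice 1 to 4 and at 395, 598, 520.1 and 487 CPM in ISOGK-treated mice 1 to 4. All ISOGK-treated mice were higher, although the lowest of them, mouse 1, was close to vehicle-treated mouse 2. *Hal* rose by 0.58 on the log2 scale (SE 0.14, 95% interval 0.27 to 0.88, edgeR adjusted p = 0.0305). The call was lost in 5 of 16 alternatives. These were scaling by library size alone (log2 fold change 0.45, adjusted p = 0.0747) and the fits without vehicle-treated mouse 1 (adjusted p = 0.0906), 3 (0.0909) or 4 (0.0557) or ISOGK-treated mouse 2 (0.0849). In all 16 its log2 fold change stayed between 0.45 and 0.67.

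The other 3 enzymes that carry histidine on to glutamate did not rise with *Hal*. *Uroc1*, urocanate hydratase, which takes up the product of *Hal*, fell by 0.40 on the log2 scale (SE 0.11, edgeR adjusted p = 0.0469). Its 4 vehicle-treated mice lay between 251 and 317 CPM and its 4 ISOGK-treated mice between 191 and 240.0 CPM. That call was lost in 9 of 16 alternatives, among them the fits without any 1 mouse other than ISOGK-treated mouse 3, with adjusted p up to 0.147. *Amdhd1* and *Ftcd*, the enzymes of the later steps, had log2 fold changes of 0.16 and -0.07 (adjusted p = 0.479 and 0.736). The ratio of *Hal* counts to *Uroc1* counts was 1.08, 1.24, 1.18 and 1.20 with vehicle and 1.90, 2.62, 2.17 and 2.55 with ISOGK. The mean ratio was 1.17 ± 0.0681 against 2.31 ± 0.339 (SD, n = 4), without overlap. This ratio does not depend on the scaling between libraries, is not corrected for gene length and was not tested.

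*Sds* encodes serine dehydratase, which converts serine to pyruvate and ammonia, and *Sdsl* encodes its serine dehydratase-like paralog. The genes lie head to head on chromosome 5 of GRCm38, *Sdsl* on the minus strand (120458186 to 120472810) and *Sds* on the plus strand (120476526 to 120483932), with 3715 bases between them. *Sdsl* stood at 7.98, 9.49, 7.63 and 8.93 CPM in vehicle-treated mice 1 to 4 and at 19.2, 26.5, 24.3 and 40.1 CPM in ISOGK-treated mice 1 to 4. In counts this was 159, 240, 196 and 200 against 392, 503, 430 and 765. The ISOGK-treated mice were all far above the vehicle-treated mice, and mouse 4 was the highest of them. *Sdsl* rose by 1.69 on the log2 scale (SE 0.20, 95% interval 1.25 to 2.13, edgeR adjusted p = 0.00117), a fold of 3.23 (2.39 to 4.38). It was called in all 16 alternatives, with log2 fold changes of 1.45 to 1.83.

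*Sds* lay on the other side of 0. It stood at 227, 264, 166 and 229 CPM in vehicle-treated mice 1 to 4 and at 215, 167, 131 and 108 CPM in ISOGK-treated mice 1 to 4. The groups overlapped, since vehicle-treated mouse 3 was below ISOGK-treated mice 1 and 2. Its log2 fold change was -0.52 (SE 0.21, 95% interval -0.98 to -0.05) and did not pass the test (edgeR adjusted p = 0.164). Without ISOGK-treated mouse 1 it was -0.71 with an adjusted p of 0.0348. Of the 1694 exon bases of *Sds*, 21.3% overlap exons of *Plbd2* on the other strand, a gene with 1309 to 1974 counts per library and a log2 fold change of 0.19 (adjusted p = 0.239). Whether the counting used strand is not given in the sources used here, nor is the handling of reads that match both paralogs.

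*Sdsl* made up 3.39%, 3.47%, 4.39% and 3.76% of the summed counts of the pair in vehicle-treated mice and 8.22%, 13.7%, 15.7% and 27.1% in ISOGK-treated mice. The share in each ISOGK-treated mouse was above that in each vehicle-treated mouse, with means of 3.75% ± 0.453 and 16.2% ± 7.95 (SD, n = 4). The sum of both genes was 174 to 273 CPM with vehicle and 148 to 234 CPM with ISOGK, and these ranges overlapped. *Sds* counts remained above *Sdsl* counts in every mouse, with a ratio of 21.8 to 28.5 with vehicle and 2.69 to 11.2 with ISOGK. None of these shares was tested. In 12 tested genes of serine, glycine and threonine metabolism other than the pair, edgeR called 0, with 3 at an unadjusted p under 0.05, and DESeq2 and limma-voom also called 0. The median log2 fold change of the 12 was 0.02, and *Shmt1*, the cytosolic enzyme that exchanges serine and glycine, stood at -0.02 (adjusted p = 0.938). *Psat1* and *Shmt2*, named after their values were seen, were each called by edgeR under 1 alternative. *Psat1*, with only 6 to 28 counts per library, was higher without ISOGK-treated mouse 3 (1.48, adjusted p = 0.0386). *Shmt2* was lower under library size alone (-0.31, 0.0398).

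**Figure D2:**
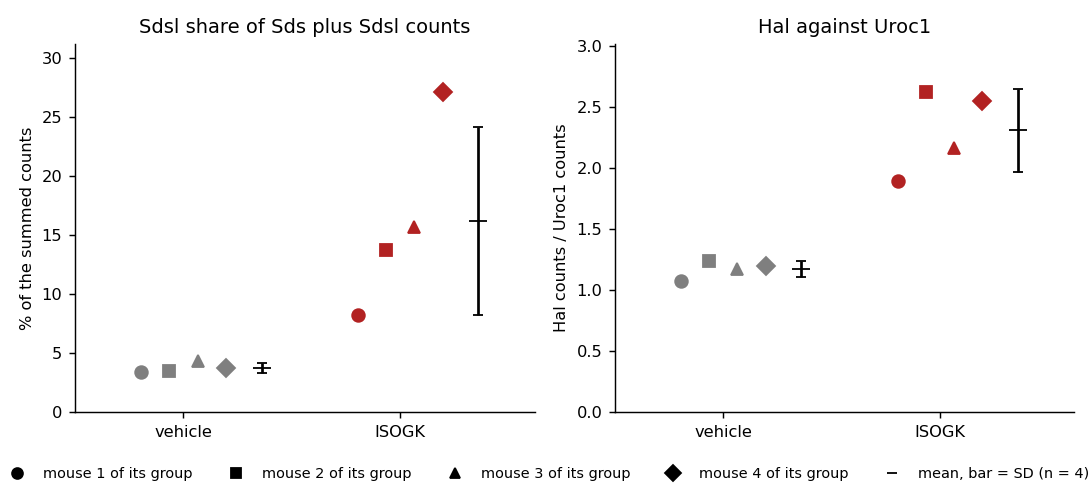
Left, *Sdsl* counts as a percentage of *Sds* plus *Sdsl* counts. Right, the ratio of *Hal* counts to *Uroc1* counts. Each symbol is 1 mouse, horizontal marks are means, bars are SD (n = 4) and both axes start at 0. The ISOGK-treated mice lie above the vehicle-treated mice in both panels, from 8.22% to 27.1% against 3.39% to 4.39% and from 1.90 to 2.62 against 1.08 to 1.24.

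*Gls2*, the liver glutaminase that frees ammonia from glutamine beside the urea cycle, stood at 246, 295, 221 and 289 CPM with vehicle and 242, 346, 288 and 226 CPM with ISOGK. The ISOGK-treated mice held values both above and within the range of the vehicle-treated mice. This gave a log2 fold change of 0.07 (SE 0.14, 95% interval -0.24 to 0.38, edgeR adjusted p = 0.812), whose sign changed in 3 of 16 alternatives, from -0.06 to 0.15. *Spryd4* on the other strand overlaps 2.79% of its exon bases. Of 11 other genes of glutamine and glutamate handling, 0 rose and 3 fell, with a median log2 fold change of -0.08. These were *Slc38a3*, a glutamine transporter (-0.47, adjusted p = 0.0333), *Glud1*, glutamate dehydrogenase (-0.35, 0.0452), and *Aldh4a1*, which completes proline breakdown to glutamate (-0.49, 0.047). Their calls were lost without single mice. *Slc38a3* lost it without vehicle-treated mouse 2, 3 or 4 or ISOGK-treated mouse 2 or 4 (adjusted p up to 0.111). *Glud1* lost it without any 1 mouse other than ISOGK-treated mouse 3 (up to 0.132) and *Aldh4a1* without any 1 other than ISOGK-treated mouse 2 (up to 0.134). With replicate number as a block *Slc38a3* and *Glud1* also lost their calls (edgeR adjusted p = 0.0552 and 0.0784). So did *Glud1* with no filter beyond 1 count (0.0509) and *Aldh4a1* without the robust option (0.0549).

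*Cyp2f2*, a cytochrome P450 that oxidizes naphthalene and related compounds and a widely used marker of the periportal zone, was not called. It stood at 887, 909, 807 and 829.7 CPM in vehicle-treated mice 1 to 4 and at 869, 775, 669.9 and 742 CPM in ISOGK-treated mice 1 to 4. ISOGK-treated mice 2, 3 and 4 were below every vehicle-treated mouse, and mouse 1 was within the vehicle range. A log2 fold change of -0.17 resulted (SE 0.10, 95% interval -0.39 to 0.06, edgeR adjusted p = 0.348), so a fall of more than 0.39 on the log2 scale lay outside the interval. An antisense gene on the other strand shares 274 exon bases, 13.5% of the exon length of *Cyp2f2*.

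*Aldh1b1*, a mitochondrial aldehyde dehydrogenase, stood at 40.1, 44.6, 33.6 and 47.2 CPM with vehicle and 32.3, 36.6, 43.2 and 21.2 CPM with ISOGK. The groups overlapped and ISOGK-treated mouse 4 was the lowest of the 8. With a log2 fold change of -0.31 it did not pass the test (SE 0.19, 95% interval -0.74 to 0.11, edgeR adjusted p = 0.354). Without ISOGK-treated mouse 4 it was -0.15 (adjusted p = 0.579) and without ISOGK-treated mouse 3 -0.47 (0.145). Of 12 other aldehyde dehydrogenases, 1 rose and 0 fell, with a median log2 fold change of -0.10. The 1 that rose was *Aldh3a2*, which oxidizes long-chain fatty aldehydes (0.64, adjusted p = 0.00805), and *Aldh2*, the main enzyme for acetaldehyde, stood at 0.01 (0.981).

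*Hsd17b13*, a dehydrogenase that sits on the surface of lipid droplets in hepatocytes, was the steadiest member among vehicle-treated mice. It stood at 334, 342, 338 and 328 CPM there and at 379, 383, 426 and 459 CPM in ISOGK-treated mice 1 to 4. All ISOGK-treated mice were above all vehicle-treated mice. The log2 fold change was 0.29 (SE 0.09, 95% interval 0.09 to 0.50) and missed the threshold with edgeR (adjusted p = 0.0769), and of the 16 alternatives DESeq2's Wald test alone called it (adjusted p = 0.0161). With library size alone it was 0.16 (adjusted p = 0.282).

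Other lipid droplet genes, tested beside *Hsd17b13*, had a median log2 fold change of 0.38, and 5 of the 10 tested rose and 0 fell. *Cidec*, which fuses droplets, rose by 3.92 on the log2 scale (edgeR adjusted p = 0.00163). The droplet coat genes *Plin2* and *Plin5* rose by 1.56 and 0.77 (adjusted p = 0.00163 and 0.00178). *Hsd17b11*, the closest relative of *Hsd17b13*, rose by 0.34 (adjusted p = 0.0465), and *Pnpla2*, a triglyceride lipase named here after its value was seen, by 0.40 (0.0466). The calls of the last 2 depended on single mice and on the processing. *Hsd17b11* kept its call only without ISOGK-treated mouse 4 among the 8 fits that left out a mouse (adjusted p up to 0.139), and *Pnpla2* only without ISOGK-treated mouse 3 or 4 (up to 0.136). Both were also lost under scaling by library size alone, where 3 of the 10 were called. The same held with no filter beyond 1 count and without the robust option. In all, *Hsd17b11* lost its call in 11 of 16 alternatives and *Pnpla2* in 10. DESeq2 called 6 of the 10, among them *G0s2* (adjusted p = 0.00277), named after its values were seen. With edgeR *G0s2* stood at 1.05 (adjusted p = 0.0975), its groups overlapped, and it was called without the robust option (0.0474). The count ratio of *Hsd17b13* to *Hsd17b11* was 1.82 ± 0.0977 with vehicle and 1.78 ± 0.275 with ISOGK (SD, n = 4), with overlap.

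*Etnppl* encodes ethanolamine-phosphate phospho-lyase, which breaks down phosphoethanolamine, a building block of membrane phospholipid. It stood at 84.1, 88.3, 51.8 and 60.0 CPM with vehicle and 95.5, 184, 147 and 57.6 CPM with ISOGK. ISOGK-treated mice 1, 2 and 3 were above every vehicle-treated mouse, while mouse 4 lay within the vehicle range. The log2 fold change of 0.77 had a wide error (SE 0.36, 95% interval -0.06 to 1.60, edgeR adjusted p = 0.237). It was 0.49 without ISOGK-treated mouse 2 and 1.00 without ISOGK-treated mouse 4 (adjusted p = 0.451 and 0.0708), and no alternative of the 16 called it. In 9 other genes of phosphoethanolamine metabolism edgeR called 0, with 2 at an unadjusted p under 0.05, limma-voom called 0 and DESeq2 called 1 (*Selenoi*). Their median log2 fold change was 0.11, and *Phykpl*, the relative of *Etnppl* that acts on phosphohydroxylysine, stood at 0.12 (adjusted p = 0.652).

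*Pigr* encodes the polymeric immunoglobulin receptor, which carries immunoglobulin A across epithelia and into bile. It stood at 1742, 1685, 1578 and 1527 CPM in vehicle-treated mice 1 to 4 and at 1400.3, 1214, 1488 and 1086 CPM in ISOGK-treated mice 1 to 4. All ISOGK-treated mice were lower than all vehicle-treated mice. The log2 fold change was -0.33 (SE 0.11, 95% interval -0.58 to -0.08) and missed the threshold (edgeR adjusted p = 0.101). It passed with DESeq2 (adjusted p = 0.0422) and without ISOGK-treated mouse 3 (-0.41, adjusted p = 0.0485).

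Bile duct cells also express *Pigr*, and their markers lay on the other side of 0. All 6 tested cholangiocyte markers had log2 fold changes above 0, with a median of 0.56, and their summed level was 39.8 to 49.2 CPM with vehicle and 44.3 to 85.1 CPM with ISOGK. At an unadjusted p under 0.05 stood 4 of the 6. edgeR called *Sox9* (0.51, edgeR adjusted p = 0.0494), a call lost in each of the 8 fits that left out a mouse (adjusted p 0.0745 to 0.140) and with limma-voom (0.0506). DESeq2 called 2 of the 6, *Sox9* and *Krt19* (adjusted p = 0.0125), and without ISOGK-treated mouse 4 edgeR called *Krt19* (1.67, 0.00769) and *Spp1* (0.81, 0.0248). Markers of B and plasma cells, the source of the immunoglobulin that the receptor binds, summed to 7.03 to 10.2 CPM and 6.03 to 24.7 CPM, and 0 of the 4 tested were called, with 0 at an unadjusted p under 0.05. The part of these cells in the *Pigr* values was not tested.

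Markers of the remaining cell types were also measured. Of 8 macrophage markers, *Cd68* was called lower (-0.57, edgeR adjusted p = 0.009), 7 had log2 fold changes below 0, and 2 stood at an unadjusted p under 0.05. DESeq2 called *Cd68* and *Cd5l*. The summed level was 1065 to 1370.2 CPM with vehicle and 851 to 1101 CPM with ISOGK, with overlap. Single libraries stood apart for some of these markers. *Marco* was at 170 CPM in vehicle-treated mouse 1 and at most 57.6 in the rest of its group. *Vsig4* was at 5.34 CPM in ISOGK-treated mouse 4 and at least 75.0 in the rest of its group. None of 9 hepatocyte, 8 endothelial, 8 stellate, 5 T and NK cell and 5 red blood cell markers tested was called, with 0, 2, 1, 0 and 2 of them at an unadjusted p under 0.05, and DESeq2 called 1 stellate marker (*Lrat*) and 0 of the others. Those genes called only under an alternative that are named here were picked after their values were seen. Without ISOGK-treated mouse 3, 4 of the 5 red blood cell markers, the haemoglobin genes *Hba-a1*, *Hba-a2*, *Hbb-bs* and *Hbb-bt*, were called higher (log2 fold changes of 0.83 to 1.25, adjusted p up to 0.0324). Of the 10 hepatocyte markers chosen, 1 was not found in the table under its symbol, and all markers found had a count in at least 1 library. The 10 skeletal muscle genes, too low to be tested, were each highest in vehicle-treated mouse 4, with a sum of 81.9 CPM there and at most 0.576 CPM elsewhere. Without that library *Sdsl* kept its call and *Hal*, as given above, did not.

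Levels between genes can be compared per kilobase of exon. In vehicle-treated livers *Cyp2f2* (424 ± 23.5 CPM per kb, SD, n = 4) and *Pigr* (406 ± 24.4) led and overlapped each other. *Hsd17b13* and *Sds* followed at means of 156 and 131 CPM per kb and also overlapped, then *Gls2* and *Hal* at 75.6 and 60.4, overlapping again. *Aldh1b1* (18.0), *Etnppl* (8.60) and *Sdsl* (5.68) were the lowest, and of these only *Etnppl* and *Sdsl* overlapped. In ISOGK-treated livers the order began in the same way, with *Cyp2f2* at 377, *Pigr* at 322 and *Hsd17b13* at 191 CPM per kb. *Sds*, *Hal* and *Gls2* then stood side by side at 91.5, 90.1 and 79.3, and *Sdsl* (18.4), *Etnppl* (14.7) and *Aldh1b1* (14.5) came last, with neighbours in each of these trios overlapping.

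The members varied more among ISOGK-treated mice than among vehicle-treated mice, by the coefficient of variation of CPM, in 9 of 9 genes. So did 68.1% of all 12307 genes tested, where the median coefficient was 11.5% with vehicle and 15.8% with ISOGK, against 13.5% and 19.7% over the members. It ran from 1.84% (*Hsd17b13*) to 25.2% (*Etnppl*) with vehicle and from 9.28% (*Hsd17b13*) to 46.1% (*Etnppl*) with ISOGK. *Etnppl* differed 3.20-fold between the highest and the lowest ISOGK-treated mouse, *Sdsl* 2.08-fold, *Aldh1b1* 2.04-fold and *Sds* 1.99-fold. This difference in spread was not tested.

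Some mice stood highest or lowest in their group for many of the members. Vehicle-treated mouse 2 was the highest of its group for 7 of 9 members and vehicle-treated mouse 3 the lowest for 6 of 9. ISOGK-treated mouse 1 was the nearest of its group to the vehicle mean for 6 of 9 members, among them both called genes. ISOGK-treated mouse 4 was the farthest for 5 of 9, with differences from the vehicle mean in log2 CPM of 2.23 for *Sdsl* and -1.02 for *Sds*. The like shares over all genes were not counted, so these counts cannot be read as particular to the members. Over all genes, pairs with ISOGK-treated mouse 4 had a chi-square per gene of 84.8 to 99.6. The other pairs of ISOGK-treated mice had 33.2 to 66.8. The number of members above the vehicle mean was 5, 5, 6 and 3 in ISOGK-treated mice 1 to 4.

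Within the ISOGK group the members did not all follow one order of mice. *Hal*, *Gls2* and *Etnppl* were highest in mouse 2 and next highest in mouse 3. *Hsd17b13* and *Sdsl* were highest in mouse 4 and lowest in mouse 1, while *Sds* was highest in mouse 1 and lowest in mouse 4. The urea cycle gene *Ass1* was also highest in mouse 2 and lowest in mouse 4, at 2418, 3258, 3045 and 2335 CPM in mice 1 to 4. The cholangiocyte keratin *Krt19*, named after its values were seen, took the same order in these mice, at 2.16, 4.12, 3.45 and 0.943 CPM. How much of the members' spread goes with such cells was not tested.

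**Figure D3:**
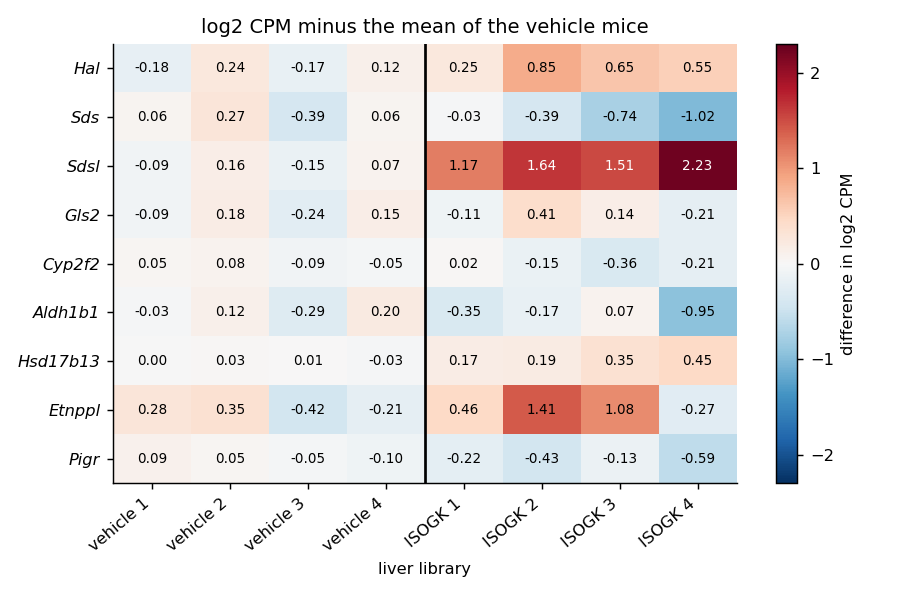
Difference in log2 CPM of each periportal gene in each library from the mean of the vehicle-treated mice, with red above and blue below 0. *Sdsl* runs from 1.17 to 2.23 in ISOGK-treated mice, *Sds* from -1.02 to -0.03, and *Etnppl* from -0.27 to 1.41.

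The other genes of both ends of the lobule were examined in the same fit. Of 14 other periportal genes, 2 rose and 1 fell, with a median log2 fold change of 0.18 and 5 whose groups did not overlap. Over all genes tested 7.55% were called and the groups did not overlap for 15.3%. At an unadjusted p under 0.05 with edgeR stood 8 of the 14, and 2973 of all 12307 genes tested. *Asl*, argininosuccinate lyase of the urea cycle, rose by 0.98 (SE 0.15, edgeR adjusted p = 0.00336), from 412 to 519 CPM in vehicle-treated mice to 722 to 1245 CPM in ISOGK-treated mice. *Arg1*, arginase, which forms urea from arginine, rose by 0.48 (SE 0.11, adjusted p = 0.028). *Igfals*, the acid-labile subunit of the circulating insulin-like growth factor complex, fell by 0.66 on the log2 scale (SE 0.14, adjusted p = 0.0133).

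The remaining reference genes of the periportal zone were not called. *Cps1* and *Ass1*, the carbamoyl-phosphate and argininosuccinate synthetases, had log2 fold changes of 0.12 and -0.00 (adjusted p = 0.665 and 0.998). *Pck1*, a gate of glucose production, stood at 0.51 (adjusted p = 0.0679) and was called by DESeq2 (0.0234) and without ISOGK-treated mouse 4 (0.0324). The call of *Arg1* was lost without any 1 vehicle-treated mouse or ISOGK-treated mouse 2 (adjusted p 0.0648 to 0.0875). It was also lost under library size alone (edgeR adjusted p = 0.0672). Under DESeq2 6 of the 14 were called. *Uox*, named after its values were seen, stood at -0.44 (edgeR adjusted p = 0.057) and was lower in every ISOGK-treated mouse. It was called by DESeq2 (0.0122). With edgeR it was called under library size alone (0.0112), with no filter beyond 1 count (0.0496) and without ISOGK-treated mouse 4 (0.0198).

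Of 16 pericentral genes, 2 rose and 2 fell, with a median log2 fold change of 0.03 and 7 at an unadjusted p under 0.05 with edgeR. *Cyp1a2*, a drug-metabolizing cytochrome P450, fell by 0.48 on the log2 scale (edgeR adjusted p = 0.0101), as did *Rgn*, the calcium-binding regucalcin, by 0.40 (0.0428). *Oat*, ornithine aminotransferase, and *Lhpp*, a phosphohistidine phosphatase, rose by 0.57 and 0.60 (adjusted p = 0.0461 and 0.0444). *Glul*, the glutamine synthetase that defines the cells next to the central vein, stood at 0.05 (0.836) and *Cyp2e1*, a P450 that oxidizes ethanol, at 0.03 (0.900). Both zones thus held genes that rose and genes that fell, and the difference between the zones was not tested. Leaving out 1 mouse ended the calls of *Oat* (each mouse but ISOGK-treated mouse 3), *Rgn* (each but ISOGK-treated mouse 4) and *Lhpp* (vehicle-treated mouse 1, 2 or 3 or ISOGK-treated mouse 1, 2 or 4), with adjusted p up to 0.126, 0.124 and 0.132. *Oat* and *Lhpp* also lost their calls under library size alone (edgeR adjusted p = 0.0871 and 0.0817), and *Oat* without the robust option (0.0541).

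**Figure D4:**
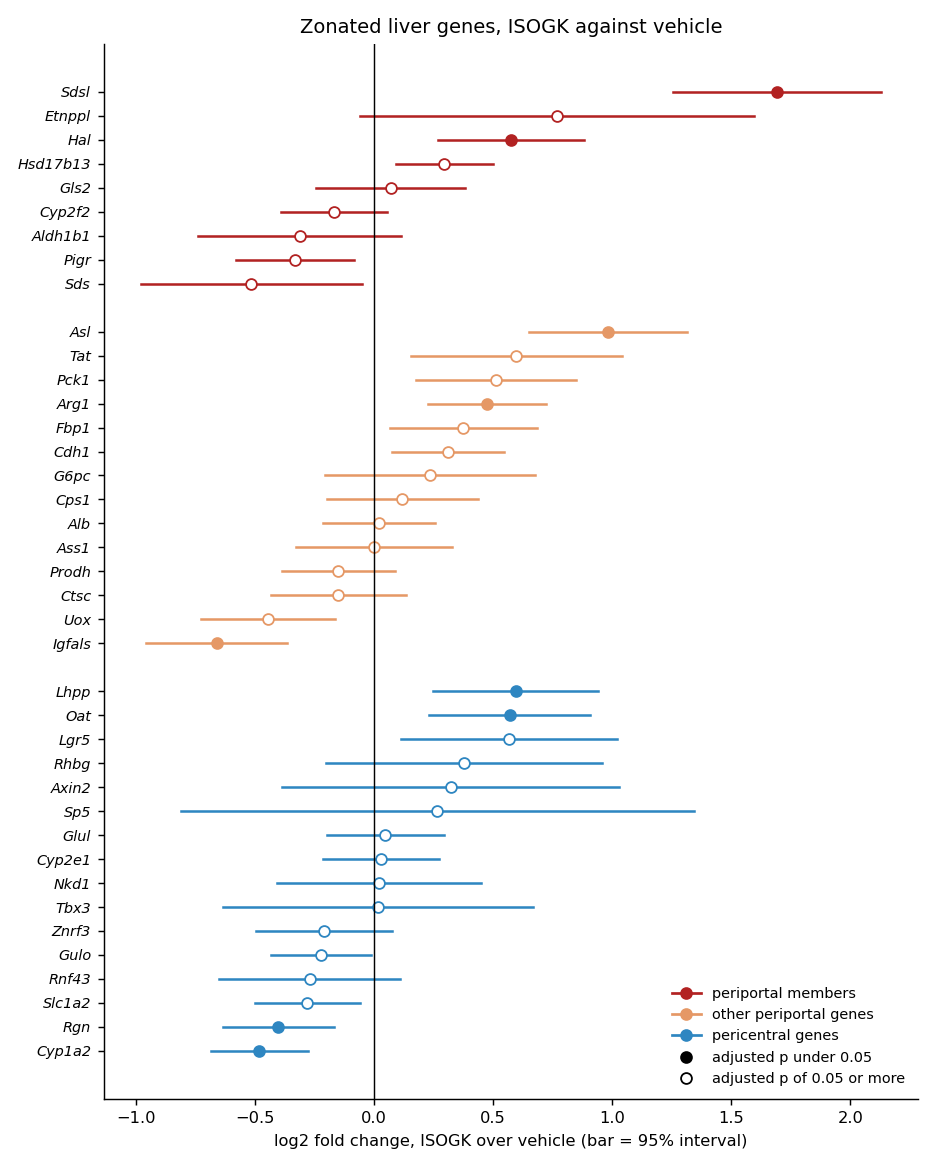
log2 fold change of ISOGK over vehicle for the 9 periportal members (red), 14 other periportal genes (orange) and 16 pericentral genes (blue), with 95% intervals. Filled circles have an edgeR adjusted p under 0.05. Filled circles lie on both sides of 0 among the other periportal genes and the pericentral genes, and on the right alone among the members.

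Regulators of the gradient and hormone-responsive genes were examined as well. Of 15 regulators of zonation and of hepatocyte identity, among them Wnt pathway and HNF, FOXA and C/EBP genes, edgeR called 0, with 4 at an unadjusted p under 0.05, limma-voom 0 and DESeq2 2 (*Apc* and *Cebpa*). With edgeR both were called under scaling by library size alone (adjusted p = 0.0229 and 0.0337), and *Apc* with no filter beyond 1 count (0.0489) and without vehicle-treated mouse 4 (0.0419) or ISOGK-treated mouse 3 (0.0278). Of 11 genes known to answer to glucagon or glucocorticoids, which also drive amino acid breakdown and glucose production in periportal cells, edgeR called 0, with 3 at an unadjusted p under 0.05, limma-voom 0 and DESeq2 2 (*Pck1* and *Tat*). With edgeR *Tat* was also called without vehicle-treated mouse 1 (0.85, adjusted p = 0.00803) and with replicate number as a block (0.64, 0.0405). *Pck1* and *Tat* are also among the other periportal genes above, so their calls there are the same calls. The median log2 fold changes were -0.07 for the regulators and 0.14 for the hormone-responsive genes.

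The genes whose pattern over the 8 libraries came closest to the 2 called members were found by the root mean square difference of log2 CPM, after each gene was centred on its own mean. For *Hal* these were *Pdgfc*, a growth factor (0.07, where the median over all genes was 0.41), and *Hnrnpdl*, an RNA-binding protein (0.11). For *Sdsl* they were *Apoa4*, an apolipoprotein (0.17, where the median over all genes was 0.89), and *Gm45716*, a predicted gene (0.18). The log2 fold changes of these 4 were 0.55, 0.44, 1.46 and 1.78. Since the mean was taken over both groups, the difference between the groups is part of this pattern. Genes of like log2 fold change therefore lie close, and the closest of all genes lie below the median by construction.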

How the data were processed

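The authors aligned single-end reads of liver RNA with HISAT2 and counted them on genes with StringTie. The table they deposited holds raw, whole-number counts by gene symbol for 4 vehicle-treated and 4 ISOGK-treated mice. The submitters' processing notes name the build mm10. Neither the Ensembl release nor whether counting used strand is given in the sources used here. Groups and numbers came from the labels, and columns named DMSO were taken as vehicle.

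Genes were filtered with filterByExpr (minimum count 10, minimum total 15), scaled by TMM and tested with edgeR 4.0.16 (quasi-likelihood, robust) in R 4.3.3 with Benjamini-Hochberg adjustment over all 12307 genes. The threshold was an adjusted p of 0.05. SE is the log2 fold change divided by the root of F. The prior count of log2 CPM was 2. The common biological coefficient of variation was 0.164. Reads carry no molecular identifiers, and if libraries were not from separate mice, p-values measure only technical spread. Gene positions and exon lengths are those of GENCODE M21 (GRCm38), which held 16211 of the 16540 symbols. Promoters are from RefSeq (GRCm38.p6).

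The members and all lists were chosen with earlier results of these data known. Named were all members, up to 4 called genes per list (those of smallest adjusted p), 12 reference genes, and the 2 genes most like each called member. One of the reference genes is not reported here. Markers, overlapping genes and some of the genes called by an alternative alone are named beside the results they touch, outside this rule. Other listed genes called by an alternative alone are not named. The alternatives were DESeq2 1.42.0, limma-voom (limma 3.58.1), other scalings and filters, the test without the robust option, a replicate block, and each mouse left out. The methods were tested on simulated counts with 200 changed genes.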

Additional observations from a re-analysis of the deposited data

Results flagged for a closer look

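The number of genes with at least 1 count was 15369 in vehicle-treated mouse 4, while the rest of its group had 14997 to 15042. This gap was 0.879 of the range of the group, which made the library stand apart. This was 1 of 26 groups of 4 values examined, where chance gives about 1.3. It is the library that held the skeletal muscle transcripts.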

How the results depend on the processing

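Over all genes edgeR called 506 higher and 423 lower, and 200 were also past an absolute log2 fold change of 1. DESeq2 called 744 higher and 661 lower, and with it 3 members were higher and 1 lower. Library size alone, which moved the median log2 fold change of all genes by -0.13, gave 262 higher and 804 lower, with 1 member higher. Leaving out each mouse in turn gave 219 to 712 genes higher, 160 to 523 lower and 123 to 250 past a log2 fold change of 1, with 1 to 2 members higher and 0 to 1 lower, where the fewest genes came without vehicle-treated mouse 2, the most higher and the most lower without ISOGK-treated mouse 3, and the 250 without ISOGK-treated mouse 1. With the replicate block 411 genes were higher and 416 lower, 688 of these 827 calls were shared with the 929, and 2 members were higher (*Hal* adjusted p = 0.0154) and 0 lower. Deviations of same-numbered mice correlated at -0.01 to 0.08, and 2 of 8 libraries correlated best with their own number, so the numbers were not taken as pairs. No called value changed sign. Of 144 values of members under 16 alternatives, 5 lost and 4 gained a call.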
